A study of Oryza sativa with 36 samples.

Results

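HOX6, HOX22 and HOX24 are 3 rice transcription factor genes of the homeodomain-leucine zipper family I (HD-Zip I), and they were followed here over all 12 groups of a salt stress experiment in seedlings. They were chosen by name, as the probe sets mapped to a single gene with one of these symbols or synonyms. Each of the 3 genes was found, with 1 probe set each, among 17905 genes that could be named on the Affymetrix rice array. The gene IDs are LOC4330155 for HOX24, LOC4336542 for HOX22 and LOC4347647 for HOX6, whose probe set is of a type that reads several transcripts of a single gene. With 1 probe set per gene, no other probe set could be set beside it.

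HD-Zip proteins are found in plants. A homeodomain binds DNA, and the leucine zipper beside it joins the proteins in pairs, so that family members can act as partners. HOX6, HOX22 and HOX24 are the rice relatives of ATHB7 and ATHB12 of Arabidopsis, whose transcripts are induced by drought and by abscisic acid (ABA), the hormone of water deficit. In Arabidopsis this induction passes from ABA receptors over clade A protein phosphatases 2C (PP2Cs) and SnRK2 kinases to bZIP factors. In rice, HOX22 has been linked to ABA levels and to drought and salt tolerance.

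Gene expression was measured on 36 arrays, with 3 arrays for each combination of 2 genotypes, 2 organs and 3 treatments. PL177, labelled 177-103, is a salt-tolerant F6 line bred from introgression lines in the IR64 background, and IR64 is the salt-sensitive parent variety. The labels give both as indica rice. Both were grown in nutrient solution to the 3-leaf seedling stage and given no addition (control), 140 mM NaCl (salt) or 140 mM NaCl with 10 µM ABA (salt+ABA), for 4 days according to the labels of the treated samples. No group had ABA without salt, so an effect of ABA alone was not measured. The organs were roots and shoots, the latter labelled leaf. The labels call the 3 arrays of a group biological replicates and do not say whether each came from its own tank of plants. The intensities are linear and are the deposited values. Medians of single arrays lay between 56.9 and 64.5, and 31.1% of the values were below 32. Changes are given as log2(intensity + 32) after quantile normalization, on which a dim gene changes less than in its intensities. A change was called at more than 2-fold with an adjusted p below 0.05, both from limma over all 57194 probe sets. Levels of different probe sets cannot be compared, so the level of each gene is compared only with itself. Between genes only changes are compared.

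The organ labels were checked with marker genes. The summed intensity of 3 leaf markers (CAB2R, RBCS and RCA) was 55841 to 58557 in shoots and 5024 to 23384 in roots. Each of the 3 reached 100 or more on at least 1 root array. The summed intensity of 6 root markers was 21654 to 32265 in roots and 1331 to 5187 in shoots, where IRT1, LSI2, NAS1 and NAS2 stayed below 100 on every array. In bulk tissue, fewer cells of a type and less RNA per cell cannot be told apart.

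HOX24 was up-regulated in every comparison with the control, in both organs and both genotypes. It rose most under salt in shoots, reached its highest mean in IR64 roots under salt+ABA, and was the only member whose level in shoots was lower under salt+ABA than under salt by more than 2-fold.

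In shoots of control plants the HOX24 intensities were 68.8, 46.6 and 63.2 in PL177 and 44.7, 39.5 and 52.9 in IR64. These values lie close to the array medians, so the size of any fold against them is uncertain. Under salt they were 1414, 1369 and 2409 in PL177 and 2107, 1417 and 1635 in IR64. Under salt+ABA they were 283, 544 and 322 in PL177 and 458, 670 and 400 in IR64. The 3 treatments gave 3 separate ranges in each genotype, with salt highest, salt+ABA between and control lowest. Salt+ABA against control was 2.12 ± 0.25 in PL177 (log2, SE, n = 3 per group, limma adjusted p = 0.000337) and 2.76 ± 0.25 in IR64 (adjusted p = 3.49e-05). It was called in both, where 0.309% and 0.315% of all probe sets were called up. Salt alone against control gave 4.24 ± 0.25 in PL177 and 4.48 ± 0.25 in IR64, where 0.984% and 0.969% of all probe sets were called up. These 2 comparisons share the control arrays. Depending on the pseudocount, normalization and test, the salt change lay between 3.28 and 4.82 in PL177 and between 3.41 and 5.19 in IR64. From salt to salt+ABA HOX24 was called lower, at -2.12 and -1.72 (adjusted p = 0.000573 and 0.00204), a direction in which 0.514% of all probe sets were called in PL177 and 0.476% in IR64. By a plain test per probe set with equal variances, in place of limma, the adjusted p of the salt change in PL177 (0.0886), of salt+ABA against control (0.128 and 0.0754) and of salt+ABA against salt (0.057 and 0.0666) missed the threshold. Of all 57194 probe sets, that test called 0 under salt in PL177 shoots. It called 22 and 19 for salt+ABA against control, and 119 and 116 for salt+ABA against salt.

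Markers of leaf senescence were also highest under salt in shoots, but lowest under salt+ABA by their medians. The summed intensity of SGR, NYC1 and NOL, which act in chlorophyll breakdown, was 4709 to 6054 in PL177 controls, 6582 to 8691 under salt and 4172 to 4761 under salt+ABA. In IR64 it was 4921 to 6012, 8202 to 8387 and 4396 to 4618. The salt arrays were above all others, and the salt+ABA arrays were not above the controls, whereas HOX24 stayed above its controls there. The part of senescence in the HOX24 values was not tested.

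In roots HOX24 began at 131.8, 65.8 and 105.1 in PL177 controls and at 118.5, 62.1 and 108.5 in IR64 controls. Under salt the values were 2472, 635 and 817 in PL177 and 2751, 595 and 634 in IR64. Under salt+ABA they were 1921, 1815 and 1226 in PL177 and 2271, 2261 and 1820 in IR64. All treated arrays lay above all control arrays, and the salt and salt+ABA ranges overlapped because array 1 of each genotype was the highest under salt. Of all probe sets, 15.1% (PL177) and 14.4% (IR64) had every salt array above every control of the genotype. Under salt+ABA it was 18.4% and 17.9%. Salt raised HOX24 by 3.08 ± 0.51 in PL177 (adjusted p = 0.00119) and 3.00 ± 0.51 in IR64 (adjusted p = 0.00151), where 0.731% and 0.608% of all probe sets were called up. Salt+ABA raised it against the same controls by 3.66 ± 0.51 (adjusted p = 0.000186) and 4.11 ± 0.51 (adjusted p = 8.41e-05), where 1.1% and 0.876% were called up. The difference between salt+ABA and salt was 0.58 in PL177 (95% interval -0.50 to 1.67, limma adjusted p = 0.619) and 1.11 in IR64 (0.02 to 2.20, adjusted p = 0.255), so the call was not made in either. In these comparisons 1.38% and 1.31% of all probe sets were called in either direction.

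**Figure D1:**
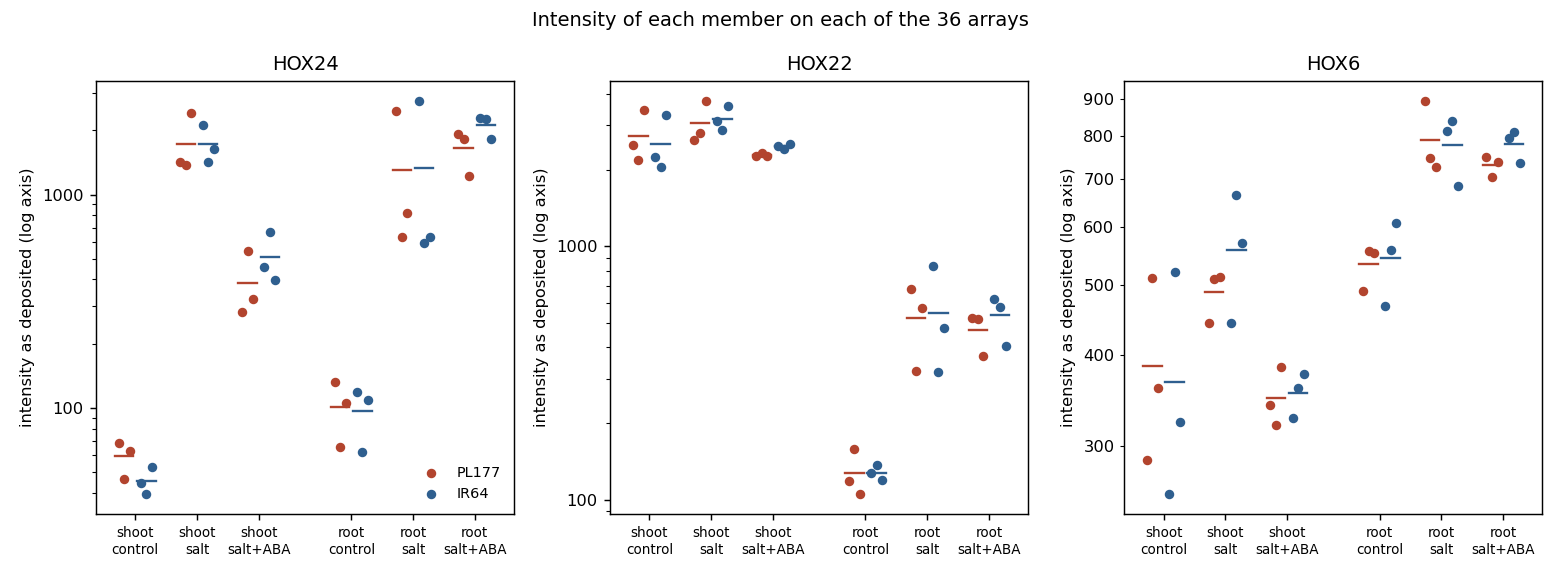
Intensity of HOX24, HOX22 and HOX6 (vertical log axis, deposited values, 1 panel per gene) on each array of the 12 groups. Points are arrays, in the order of their replicate numbers within a group, and lines are group means, with PL177 and IR64 coloured apart; HOX24 changes with treatment in both organs, HOX22 is at 2053 or more in every shoot array and at 836 or less in every root array, and HOX6 has the narrowest range.

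The spread of HOX24 in salt-treated roots rested on a single array in each genotype. Array 1 was 3.40 times the mean of the other arrays in PL177 and 4.48 times in IR64. HOX22 was also higher on these arrays, by 1.51 and 2.1 times, and HOX6 by 1.21 and 1.07 times. Leaving out both arrays numbered 1 was chosen after seeing that they held the highest HOX24 values under salt. It therefore had to raise the difference between salt+ABA and salt in roots, which became 1.14 in PL177 and 1.83 in IR64. HOX24 then passed the threshold in both, which is no separate support. Salt against control was called with or without these arrays.

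The same arrays were read for genes of ABA signalling and response, a look taken after the HOX24 values had been seen. Of 8 measured clade A PP2C genes, which code for phosphatases that hold ABA signalling back, 4 were more than 1.5 times as high on array 1 as on the other salt arrays in both genotypes (PP2C30, PP2C68, PP2C09 and PP2C06), and 3 in neither. Of all probe sets, 0.603% were above 1.5 times in both. PP2C30 had 2305, 462 and 837 in PL177 and 2977, 392 and 623 in IR64. Its array 1 was the highest in both, as for HOX24. Of 10 measured ABA and dehydration response genes, 0 were more than 1.5 times as high on array 1 in both genotypes, and 7 in neither. RAB16D, a dehydrin gene, had 866, 1215 and 3113 in PL177 and 1531, 1679 and 1258 in IR64. Its highest array was thus not array 1. In IR64, however, PM1 (1.71 times), RAB16B (1.65 times) and RAB16C (1.88 times) were above 1.5 on array 1, with 1.25, 1.2 and 1.16 in PL177. The leaf marker sum was 16616 on array 1 in PL177 and 15395 in IR64, in each the lowest of the 3 salt arrays. What set array 1 apart was not tested.

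**Figure D2:**
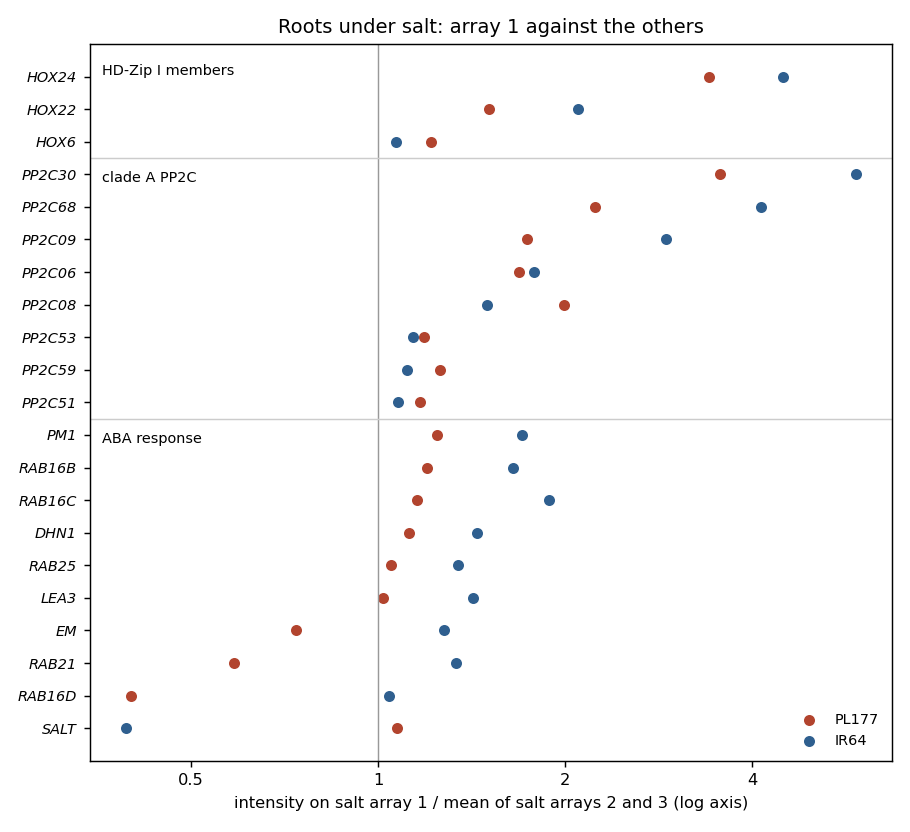
Intensity on array 1 of salt-treated roots divided by the mean of arrays 2 and 3 (horizontal log axis), for the 3 HD-Zip I genes, 8 clade A PP2C genes and 10 ABA response genes, with 1 point per genotype. HOX24 (3.40 and 4.48) and PP2C30 (3.55 and 5.87) have the highest values in both genotypes, PP2C68 follows at 2.23 and 4.13, and the ABA response genes lie between 0.394 and 1.88.

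HOX22 was high in shoots under every treatment, and its calls against the control were all in roots. In PL177 shoots its lowest, median and highest intensities were 2194, 2504 and 3439 in controls, 2616, 2808 and 3754 under salt, and 2264, 2280 and 2327 under salt+ABA. In IR64 shoots they were 2053, 2256 and 3309 in controls, 2864, 3124 and 3589 under salt, and 2418, 2485 and 2535 under salt+ABA. Control and salt ranges overlapped, and so did control and salt+ABA. The salt changes in shoots were 0.23 in PL177 (95% interval -0.14 to 0.60) and 0.42 in IR64 (0.06 to 0.79), with limma adjusted p = 0.441 and 0.152, so that a rise of 2-fold lay outside both intervals. Salt+ABA against control gave -0.15 (-0.52 to 0.22) and 0.06 (-0.31 to 0.43).

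In roots of control plants HOX22 had 105 to 158 in PL177 and 119 to 137 in IR64. Salt brought it to 322, 572 and 676 in PL177 and to 319, 478 and 836 in IR64, from lowest to highest. Salt+ABA brought it to 369, 516 and 519 in PL177 and to 406, 576 and 622 in IR64. All 12 treated root arrays lay above all 6 controls. Within a genotype, 15.1% (PL177) and 14.4% (IR64) of all probe sets had every salt array above every control. Under salt+ABA it was 18.4% and 17.9%. In roots HOX22 rose by 1.71 ± 0.30 and 1.67 ± 0.30 under salt (adjusted p = 0.00175 and 0.00207) and by 1.64 ± 0.30 and 1.78 ± 0.30 under salt+ABA (adjusted p = 0.0016 and 0.00106), PL177 first. Each was called. By the plain test per probe set, the rises under salt in roots missed the threshold for HOX22 (adjusted p = 0.138 and 0.198) and for HOX24 (0.1405 and 0.204). That test called only 8 (PL177) and 10 (IR64) of all 57194 probe sets there. Salt+ABA and salt differed by -0.07 in PL177 (95% interval -0.70 to 0.57) and 0.11 in IR64 (-0.53 to 0.74) and were not called.

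Since HOX22 was high in shoots, the leaf markers in roots are given beside it. Their sum was 6978 to 14586 in control roots of the 2 genotypes, 15395 to 23384 under salt and 5024 to 8052 under salt+ABA. Under salt it lay above the controls, as HOX22 did. Under salt+ABA the sum was 5024 to 7033 in PL177, against 6978 to 14586 in its controls. In IR64 it was 5826 to 8052, against 9577 to 14087. HOX22 was at 369 or more on every root array under salt+ABA. The part of leaf RNA in the root values of HOX22 was not tested.

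HOX6 changed least of the 3 in roots against the control. In shoots its lowest, median and highest intensities were 287, 361 and 510 in PL177 controls and 258, 324 and 522 in IR64 controls. They were 443, 510 and 512 in PL177 and 443, 570 and 664 in IR64 under salt, and 321, 342 and 386 in PL177 and 328, 360 and 376 in IR64 under salt+ABA. The controls spread over most of the range of the treated arrays, since control array 2 was 1.58 times the mean of the others in PL177 and 1.79 times in IR64. No treatment of shoots was called.

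In roots HOX6 had 491 to 556 in PL177 controls and 468 to 609 in IR64 controls. Under salt it had 727 to 896 and 683 to 841, and under salt+ABA 703 to 751 and 736 to 811, PL177 first. Every treated root array was above every control of its genotype, as for 15.1% (PL177) and 14.4% (IR64) of all probe sets under salt and 18.4% and 17.9% under salt+ABA. The log2 changes were 0.46 ± 0.10 and 0.45 ± 0.10 under salt and 0.37 ± 0.10 and 0.49 ± 0.10 under salt+ABA. Their adjusted p were 0.00719, 0.00909, 0.0208 and 0.00497 from limma, and as all were under 2-fold none was called. With the adjusted p alone as threshold, HOX6 passed in all 4.

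**Figure D3:**
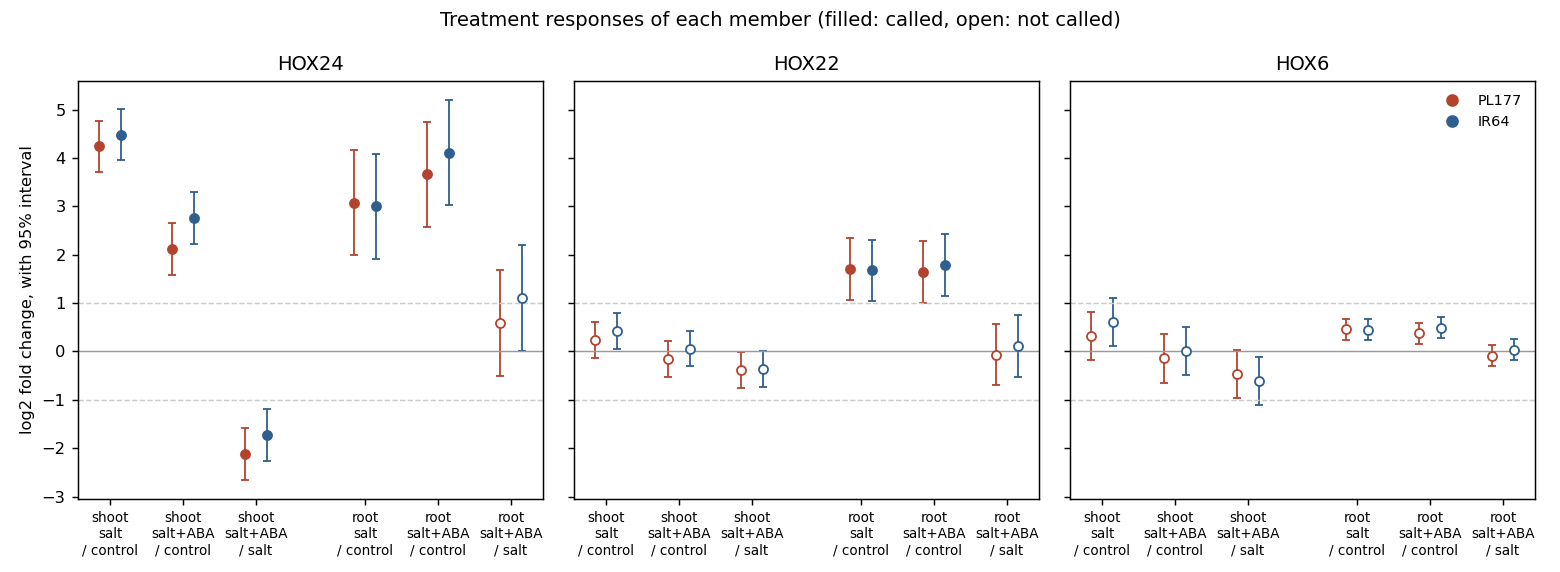
Log2 fold change of each gene (vertical axis) in the 12 treatment comparisons, with bars for the 95% interval from limma, filled points where called and open points where not; dashed lines mark 2-fold. HOX24 is called in 10 of 12, HOX22 in the 4 root comparisons with the control, and HOX6 in 0.

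The 3 genes shared one ordering in shoots. Every salt+ABA array lay below every salt array of its genotype for HOX24, HOX22 and HOX6. This held for 15.9% of all probe sets in PL177 and 14.3% in IR64, and beyond HOX24 the differences were not called. They were -0.38 and -0.37 for HOX22 (adjusted p = 0.178 and 0.206) and -0.46 and -0.61 for HOX6 (adjusted p = 0.238 and 0.122).

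Ordered by their mean, the 12 groups gave each gene a different profile. For HOX24 the first 6 groups, both roots under salt+ABA, both shoots under salt and both roots under salt, overlapped their neighbours. Their means ran from 2117 down to 1308. The shoots under salt+ABA followed at 509 and 383, and after a gap between ranges the 4 controls at 101 down to 45.7. For HOX22 the 6 shoot groups came first, at 3192 down to 2291, then the 4 treated root groups at 544 down to 468, and then the control roots at 127.9 and 127.3. For HOX6 the 4 treated root groups came first, at 790 down to 730, and shoots of IR64 under salt followed at 559. Of the 11 neighbouring pairs in each order, the ranges were separate in 1 for HOX24, 3 for HOX22 and 1 for HOX6.

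The responses of the 3 genes were set against each other on the same arrays, a comparison added once their values were known. The change of the within-array log2 difference of 2 genes was averaged over the genotypes and tested by an exact two-sided permutation of the treatments within each genotype, with 400 arrangements and a smallest p of 0.005. Of the 18 comparisons, 12 had this smallest exact p (adjusted p = 0.0075). Arrays with the same number in the 2 genotypes mostly deviated from their group means together, so these p may be too small.

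HOX24 exceeded HOX22 in its rise by 3.92 under salt and by 2.44 under salt+ABA in shoots, and by 1.40 and 2.27 in roots. It exceeded HOX6 by 3.79 and 2.46 in shoots and by 2.67 and 3.59 in roots. All 8 of these had the smallest possible p. Their size varied with the processing, the 3.92 for instance from 2.92 to 4.55. HOX22 exceeded HOX6 in roots, by 1.27 under salt and 1.32 under salt+ABA, again at the smallest p. In shoots HOX22 and HOX6 differed by -0.13 under salt (exact permutation p = 0.635, n = 3 per group) and 0.02 under salt+ABA (p = 0.92). Without both shoot control arrays numbered 2, these became -0.46 (adjusted p = 0.024) and -0.32 (adjusted p = 0.0138). From salt to salt+ABA in shoots HOX24 fell by 1.48 more than HOX22 and by 1.33 more than HOX6, at the smallest p. In roots HOX24 changed by 0.87 more than HOX22 (exact permutation p = 0.015, adjusted p = 0.0208) and by 0.92 more than HOX6 (p = 0.08, adjusted p = 0.103). The first lost the threshold without PL177 root salt+ABA array 1 (0.85), and the second passed it without both root salt arrays numbered 1 (1.52, adjusted p = 0.0129). The latter arrays were chosen by their high HOX24 values.

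The organs were compared in a fit over all 36 arrays. HOX22 was higher in shoots than in roots in every treatment, by 3.89 ± 0.26 in PL177 and 3.76 ± 0.26 in IR64 controls (adjusted p = 5.12e-13 and 1.05e-12). The difference was 2.35 and 2.45 under salt and 2.05 and 1.98 under salt+ABA. All 6 were called, where 16.3%, 14.2% and 17.7% of all probe sets were called in either direction in PL177 (control, salt, salt+ABA) and 16%, 14.2% and 17.4% in IR64. HOX24 did not differ enough for a call under control (-0.52 in PL177 and -0.69 in IR64) or salt (0.40 and 0.56). Under salt+ABA it was lower in shoots, at -2.25 ± 0.44 and -2.26 ± 0.44 (adjusted p = 7.77e-05 and 7.43e-05). HOX6 was lower in shoots in all 6, from -0.57 to -1.20, and was called only under salt+ABA, at -1.13 and -1.20. The 6 adjusted p for HOX6 ranged from 2.23e-06 to 0.0103.

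The test of the response itself between organs gave calls for HOX22 and HOX24. The HOX22 response was smaller in shoots than in roots, at -1.54 ± 0.37 in PL177 and -1.32 ± 0.37 in IR64 under salt (adjusted p = 0.00962 and 0.0245). Under salt+ABA against control, the difference was -1.84 ± 0.37 and -1.79 ± 0.37 (adjusted p = 0.00183 and 0.00288). The IR64 value under salt lost its call without IR64 root salt array 1 (-0.92), IR64 shoot salt array 2 (-1.24), IR64 shoot control array 3 (-1.13) or IR64 root control array 3 (-1.28). Both values under salt lost it when only the arrays compared were fitted (adjusted p = 0.0537 and 0.144). Among all probe sets, 2.72% (PL177) and 2.93% (IR64) were called in this test under salt, and 2.35% and 1.95% under salt+ABA.

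For HOX24 the change from salt to salt+ABA was lower in shoots than in roots, at -2.65 ± 0.62 in PL177 and -2.82 ± 0.62 in IR64 (adjusted p = 0.00613 and 0.00335). In this test 2.67% and 2.84% of all probe sets were called. The 2 organs thus moved apart on addition of ABA, down in shoots and not called in roots. The salt response of HOX24 did not pass the threshold between organs (0.92, 95% interval -0.35 to 2.20, in PL177 and 1.25, -0.02 to 2.53, in IR64; adjusted p = 0.404 and 0.232). Without both root salt arrays numbered 1, left out for their high HOX24 values, it was 1.51 and 2.01 and passed. That pass is no separate support. The response to salt+ABA against control missed the threshold at -1.73 (adjusted p = 0.0747) and -1.57 (adjusted p = 0.123).

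**Figure D4:**
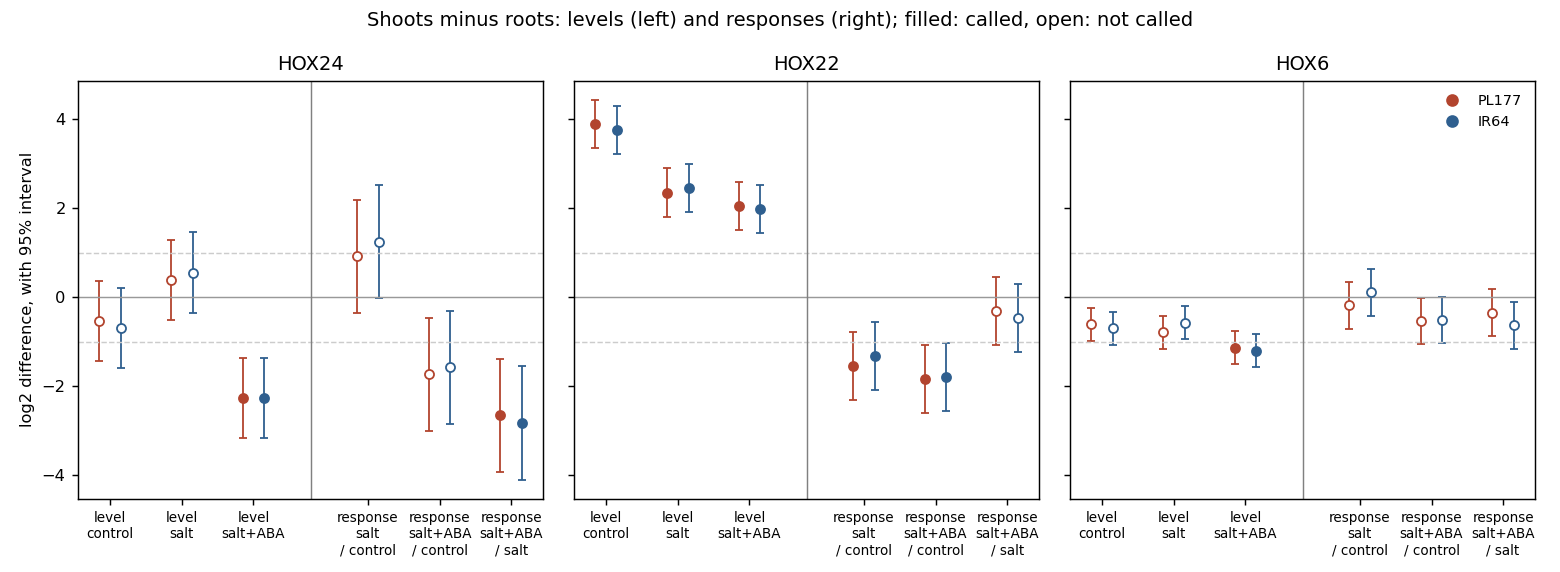
Log2 difference between shoots and roots (vertical axis, shoots minus roots) in the level of each gene in each treatment (left of the line) and in its treatment response (right of the line), with bars for the 95% interval, filled points where called and dashed lines at 2-fold. HOX22 levels lie above 0 in all treatments, and HOX24 is at -2.25 in PL177 and -2.26 in IR64 under salt+ABA.

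No difference between the genotypes was called for the 3 genes. Of 18 differences of a response between PL177 and IR64, 0 were called by limma and 0 had an unadjusted p below 0.05. They ranged from -0.64 to 0.15, and the largest was that of HOX24 in shoots under salt+ABA against control (95% intervals over all 18 from -2.06 to 1.62). Among all probe sets, the share called in shoots was 0% for salt against control, 0.0035% for salt+ABA against control and 0% for salt+ABA against salt. In roots it was 0.00175%, 0.00175% and 0%. Of 18 levels compared within a treatment and organ, 0 were called by limma, 0 had an unadjusted p below 0.05 and 1 had by a plain test per probe set with equal variances (HOX22 in shoots under salt+ABA, 2291 against 2479). The levels differed by -0.42 to 0.22. Same-numbered arrays of the genotypes mostly deviated together, and under salt+ABA both HOX24 and HOX22 were lower in PL177 in 3 of 3 same-numbered pairs in shoots and in roots. In control shoots both were lower in PL177 in 0 of 3 pairs. Under salt both were lower in 2 of 3 pairs in shoots and 1 of 3 in roots. In control roots it was 1 of 3 for HOX24 and 2 of 3 for HOX22. HOX6 was lower in PL177 in 1 of 3 pairs in shoots and 2 of 3 in roots under salt+ABA. The share of all probe sets with such pair counts was not computed, so no genotype difference is read from them. With same-numbered pairs as a random block, the HOX24 differences under salt+ABA were -0.42 ± 0.21 in shoots and -0.40 ± 0.42 in roots (limma adjusted p = 0.999898 and 0.873). In these comparisons 0.112%, 0.119% and 0.114% of all probe sets were called in shoots under control, salt and salt+ABA, and 0.107%, 0.117% and 0.114% in roots. A difference of 2-fold lay within the intervals of all 3 responses and 3 levels of HOX24 in roots, of 2 of its 3 responses in shoots and of 2 of 3 responses of HOX22 in roots.

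Genes of a like profile were sought among 15245 genes with a group mean of at least 100, by Pearson's r over the 12 group means. The points share genotype, organ and treatment, and r is a description that takes no account of the size of a change. The gene most like HOX24 was PM1 (r = 0.996), which codes for a membrane protein of the AWPM-19 type, followed by CLPB1 (0.983), a heat shock chaperone gene, LOC4345700 (0.981), RAB16D (0.975) and LOC4336739 (0.971). PM1 went from 23.4 ± 2.3 (SD) in PL177 shoot controls to 2071 ± 909 under salt and 346 ± 135 under salt+ABA. In PL177 roots it had 48.3, 906 and 1523 in the same order. Its order of treatments was that of HOX24, with salt highest in shoots and salt+ABA highest in roots. As PM1 was picked by these same group means, the shared order follows from the choice and is no separate result.

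For HOX22 the 5 nearest genes were LOC4332289 (r = 0.996), LOC4339108 (0.995), LOC4344662 (0.993), LOC4324568 (0.993) and LOC4339646 (0.991), which have no name in the gene table used. Each had its 6 shoot group means above its 6 root means, which follows from their choice by a profile like that of HOX22. For HOX6 they were LOC4340471 (0.991), LOC4351421 (0.989), LOC4351044 (0.988), ADA2 (0.988), which codes for an adaptor of histone acetyltransferase complexes, and LOC4343622 (0.987). The 3 members were not near each other, with r = 0.10 between HOX22 and HOX24, 0.59 between HOX6 and HOX24 and -0.65 between HOX6 and HOX22.

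**Figure D5:**
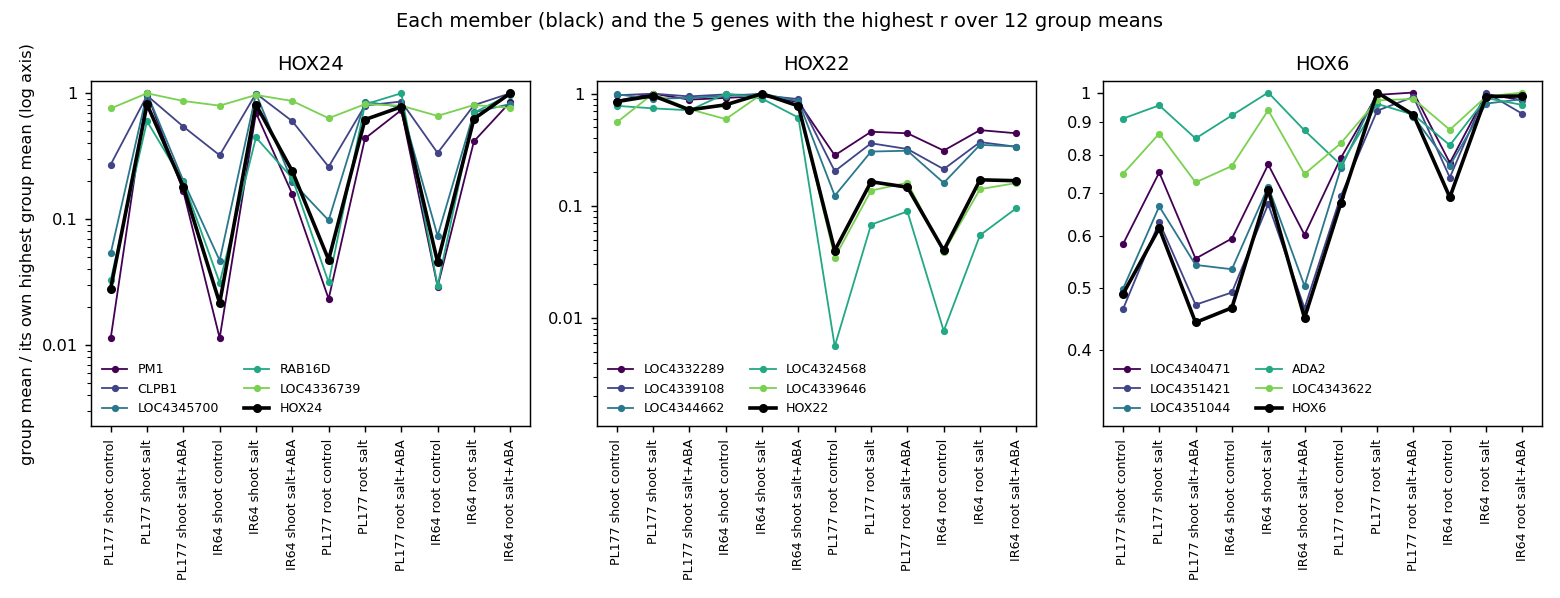
Group mean intensity of each member (black) and of the 5 genes with the highest r, each divided by its own highest group mean (vertical log axis), over the 12 groups in shoots and then roots. Picked by r over these same means, PM1 shares with HOX24 its peaks in shoots under salt and roots under salt+ABA. The genes beside each member differ from it in the size of their range. LOC4336739, beside HOX24, has group means from 3416 (PL177 control roots) to 5390 (PL177 shoots under salt) only.

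Of the 9 other HD-Zip I genes measured, 4 were called in at least 1 of the 12 treatment comparisons and each in few, where 6.15% of all probe sets were called in at least 1. HOX14 fell in roots under salt, at -1.34 in PL177 and -1.55 in IR64 (adjusted p = 0.000776 and 0.000255), where 0.607% and 0.593% of all probe sets were called down. It rose by 1.08 from salt to salt+ABA in IR64 roots. HOX12 fell from salt to salt+ABA in shoots, at -1.10 and -1.12 (adjusted p = 0.0147 and 0.0171), the direction of HOX24 there. HOX4 rose in PL177 roots by 1.04 under salt and 1.01 under salt+ABA, and had 0.85 and 0.88 in IR64 roots, under 2-fold. HOX13 fell in IR64 shoots under salt, at -1.12, and had -0.65 in PL177. HOX5, HOX8, HOX16, HOX20 and HOX21 were not called in any. The median log2 change of the 9 in roots under salt was -0.02 in PL177 and -0.0042 in IR64, where that of all probe sets was -0.0051 and 0.00046.

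The other families had no calls in the treatment comparisons. None of 8 HD-Zip II, 5 HD-Zip III or 8 HD-Zip IV genes measured was called. Of all probe sets, 6.15% were called in at least 1 of the 12 comparisons, so an absence of calls among so few genes is near that share. Family III is known for organ polarity and vascular development and family IV for the epidermis.

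The ABA pathway was read from receptors to targets. The 1 receptor gene measured, PYL5, was not called, and neither were the 2 bZIP genes, BZIP23 and TRAB1. Of all probe sets, 6.15% were called in at least 1 treatment comparison. Of 8 clade A PP2C genes, 3 rose in shoots under salt in both genotypes (PP2C51, PP2C59 and PP2C68), where 0.984% and 0.969% of all probe sets were called up, and only PP2C59 under salt+ABA, where 0.309% and 0.315% were. PP2C59 rose by 3.84 in PL177 and 3.49 in IR64 under salt and by 1.79 and 1.77 under salt+ABA. From salt to salt+ABA, PP2C51 and PP2C59 fell in shoots of both genotypes, where 0.514% and 0.476% of all probe sets were called down. In roots PP2C59 rose in all 4 comparisons with the control, PP2C30 and PP2C68 rose in PL177 under salt and in both genotypes under salt+ABA, and PP2C06 rose in IR64 under salt+ABA. The shares of all probe sets called up there were 0.731% and 0.608% under salt and 1.1% and 0.876% under salt+ABA.

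Of 10 SAPK genes, which code for the SnRK2 kinases of rice, SAPK1 rose in shoots under salt by 1.45 and 1.495 and fell from salt to salt+ABA, at -1.16 and -1.09. Of all probe sets, 0.984% and 0.969% were called up under salt, and 0.514% and 0.476% down from salt to salt+ABA. SAPK2 fell in shoots under salt, at -1.34 and -1.39, where 1.27% and 1.39% of all probe sets were called down. From salt to salt+ABA it rose in IR64 shoots by 1.49 (adjusted p = 0.0219). None of the 10 was called in roots. There at most 1.1% of all probe sets were called up against the control, and at most 1.38% in either direction from salt to salt+ABA. Of 3 genes of ABA synthesis and breakdown, ABA8OX1, which codes for an ABA 8'-hydroxylase, fell in shoots under salt, at -1.27 and -2.08, and rose from salt to salt+ABA in IR64 shoots by 1.55 (adjusted p = 0.0187). There 0.273% of all probe sets were called up, and 0.198% in PL177. ABA8OX2, of the same enzyme family, rose in roots by 1.54 and 1.20 under salt and 1.20 and 1.29 under salt+ABA.

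Of 10 ABA and dehydration response genes, 7 rose in PL177 shoots and 6 in IR64 shoots under salt, and 6 in each under salt+ABA. In roots 6 rose in PL177 and 7 in IR64 under salt, and 7 in each under salt+ABA. The shares of all probe sets called up in these 8 comparisons are those given for the PP2C genes, none above 1.1%. LEA3, PM1, RAB16B, RAB16C, RAB16D and RAB21 were among them each time. From salt to salt+ABA 4 fell in PL177 shoots and 2 in IR64 shoots, as HOX24 did, with PM1 at -2.49 and -2.05. In these shoots 0.514% and 0.476% of all probe sets were called down. In roots 2 rose in PL177 and 6 in IR64, with LEA3 at 1.499 and 1.64. There 0.327% and 0.33% of all probe sets were called up. HOX24 was not called there, at 0.58 in PL177 and 1.11 in IR64. Without both root salt arrays numbered 1 it was called, at 1.14 and 1.83, but these arrays were chosen by their high HOX24 values. The medians of the list from salt to salt+ABA were -1.48 and -1.04 in shoots and 0.75 and 1.13 in roots, and those of all probe sets 0.01, 0.00, 0.01 and 0.01.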

How the data were processed

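Gene expression was measured in 36 samples with Affymetrix rice arrays, 3 per group, and the groups were taken from the labels. The authors deposited 1 linear intensity per probe set and array. How they were summarised and normalized is not given in the sources used. All columns of values were mapped to a sample. The design was written for log2 values. As the deposited intensities are linear, they were put on the log2 scale here.

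Of 57381 probe sets, 187 control probe sets were left out and 57194 tested. Arrays were quantile normalized, 32 was added and log2 taken. Models were fitted with limma 3.58.1 (lmFit, eBayes) in R 4.3.3, with 1 fit of 6 groups for the 18 arrays of each organ and 1 fit of all 36 arrays for comparisons between organs. All adjusted p-values were obtained by the method of Benjamini and Hochberg over all probe sets, and those of the comparison between members over its 18 comparisons. The 3 arrays per group limit the precision. Tables were made with Python 3.11.15 and pandas 2.3.3, and the fit was tested on simulated data.

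Genes were named from GEO's annotation of the array, updated by RefSeq genes of ASM3414082v1, which left 22436 probe sets with 1 gene, 95 with several and 34663 with none. The probe set with the highest mean stood for a gene of a list. For each member the 5 genes of highest r were named, together with list genes that were called. The members and lists were chosen with earlier results of these data known. Names that the gene table gives to unrelated genes were taken off the lists once it could be read. Promoter and protein sequences and genome coordinates were not used here. Alternatives tried were the pseudocount, normalization, filter, prior, arrays fitted, test, threshold, a replicate block and leaving out arrays.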

Additional observations from a re-analysis of the deposited data

Results flagged for a closer look

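The treatment responses of HOX22 and HOX24 differed between shoots and roots by a test of that difference in limma over all 36 arrays. For HOX22 the salt response in shoots minus that in roots was -1.54 in PL177 and -1.32 in IR64 on the log2 scale, and the response to salt+ABA against control was -1.84 in PL177 and -1.79 in IR64. For HOX24 the change from salt to salt+ABA in shoots minus that in roots was -2.65 in PL177 and -2.82 in IR64. All 6 had an adjusted p below 0.05 and a difference of more than 2-fold. With only the arrays compared in the fit, both HOX22 differences under salt missed the threshold (adjusted p = 0.0537 and 0.144), and the one in IR64 also did so with a larger pseudocount (-0.91) and on leaving out each of 4 arrays. The direction was the same in both genotypes. Salt+ABA and salt comparisons of an organ share arrays, so the 6 are not independent.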

How the results depend on the processing

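Of 95 results, 50 kept their direction and their side of the threshold under every alternative and on leaving out any array. Of 1109 values under alternatives 47 changed. HOX24 against control kept its calls under each alternative other than the plain t-test. That test, adjusted over all probe sets, gave no call for HOX24 under salt in PL177 shoots (4.26), under salt+ABA in shoots (2.09 in PL177, 2.76 in IR64), from salt to salt+ABA in shoots (-2.09, -1.71) and under salt in roots (3.07, 3.01), nor for HOX22 under salt in roots (1.69, 1.68). Across these comparisons it called from 0 to 119 of all probe sets. With the adjusted p alone as threshold, HOX6 passed in roots under salt (0.46, 0.45) and salt+ABA (0.37, 0.49) and between organs in controls (-0.61, -0.69) and under salt (-0.79, -0.57). With a pseudocount 4 times as large, HOX6 between organs under salt+ABA in PL177 (-0.96) and the HOX22 salt response between organs in IR64 (-0.91) were not called, and HOX6 under salt+ABA in IR64 shoots turned to -0.0058. Median centring turned HOX6 and HOX22 under salt+ABA in IR64 shoots to -0.049 and -0.056, and values as deposited turned HOX22 there to -0.0034 and its difference from HOX6 in shoots to -0.060. With only the arrays compared, the HOX22 salt response between organs was not called (-1.54 in PL177, -1.33 in IR64), and that of HOX24 to salt+ABA was (-1.75, -1.57). The cause of these changes was not tested.

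The following were chosen after seeing the data. With same-numbered arrays of a treatment as a random block, the HOX24 response to salt+ABA between organs was called in PL177 (-1.73). Without both root salt arrays numbered 1, HOX24 was called from salt to salt+ABA in roots (1.14, 1.83), in shoots against roots under salt in IR64 (1.32) and between organs in its responses to salt (1.51, 2.01) and salt+ABA (-1.74, -1.57), and its difference from HOX6 passed (1.52). The HOX22 salt response between organs in IR64 was not called (-0.92), and HOX22 from salt to salt+ABA in PL177 roots turned to 0.12. Without both shoot control arrays numbered 2, HOX6 under salt+ABA in PL177 shoots turned to 0.072, HOX22 in IR64 to -0.026 and the HOX6 salt response between organs in PL177 to 0.026. HOX22 minus HOX6 in shoots passed under salt (-0.46) and turned under salt+ABA (-0.32).

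Leaving out 1 array changed 20 of 92 results. Under salt+ABA against control in shoots the values lay from -0.36 to 0.072 (HOX6, PL177), -0.22 to 0.29 (HOX6, IR64), -0.26 to 0.018 (HOX22, PL177) and -0.051 to 0.25 (HOX22, IR64). From salt to salt+ABA in roots they lay from -0.36 to 0.12 (HOX22, PL177), -0.22 to 0.49 (HOX22, IR64), -0.071 to 0.10 (HOX6, IR64) and 0.73 to 1.83 (HOX24, IR64). Between organs the salt response lay from -0.39 to 0.027 (HOX6, PL177), -0.10 to 0.39 (HOX6, IR64), -1.66 to -0.92 (HOX22, IR64) and 0.85 to 2.01 (HOX24, IR64). The response to salt+ABA lay from -1.97 to -1.52 (HOX24, PL177) and -1.76 to -1.36 (HOX24, IR64), the change from salt to salt+ABA from -0.50 to 0.0035 (HOX22, PL177), and HOX24 in shoots against roots under salt in IR64 from 0.16 to 1.32. Without IR64 root salt array 1, HOX24 was called in IR64 in each of these 4 results (1.83, 1.32, 2.01 and -1.57), and in PL177 its response to salt+ABA between organs was called without that array or PL177 root salt array 1 (-1.73 each). Between genes, the ranges were 0.72 to 1.07 (HOX24 minus HOX22), 0.69 to 1.27 (HOX24 minus HOX6) and -0.15 to 0.21 (HOX22 minus HOX6) from salt to salt+ABA in roots, and -0.16 to 0.14 for HOX22 minus HOX6 under salt+ABA in shoots.

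Same-numbered arrays of the 2 genotypes deviated together (correlation over 0.1) in 8 of 9 pairs in roots and 7 of 9 in shoots. As this did not hold for every pair and the labels give no shared batch, the main comparisons were fitted without a block. The paper's methods describe a box that held both genotypes, so a batch shared by number is possible, though the labels do not give it. The main genotype comparisons leave out this possible pairing. With same-numbered arrays of a treatment as a random block, the correlation within a block was 0.27 in shoots and 0.19 in roots. No genotype comparison was called in that fit. The fit with the replicate number as a block over all treatments changed no call among 74 values. In this balanced design such a block leaves every log2 change as it was, such as 3.08 for HOX24 under salt in PL177 roots. It does not model sharing within a treatment, so it cannot decide on a batch shared by the genotypes. No call between genotypes appeared under any alternative. Of the 5 genes most like each member, 4 remained at the larger pseudocount. By Spearman's rho 0 remained for HOX6 and HOX22 and 1 for HOX24. Other probe sets could not be tried, as each gene has 1. The intensities of HOX24 in controls, near the array medians, limit the size of its folds.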
